A study of Mus musculus with 10 samples.

Results

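The genes described here are 10 neighbours of Csk on mouse chromosome 9: Gm6166, Ppcdc, Scamp5, Rpp25, Fam219b, Mpi, Scamp2, Ulk3, Edc3 and Clk3. They were taken by position, by matching the Ensembl identifier of each row to a symbol, and all 10 were found among the 37583 genes of each count file. They were chosen by position and by the measured differences between the genotype groups, which were known when they were proposed, so the values of that comparison describe them and test nothing. Polyadenylated RNA of left atrium from adult mice was read in 10 libraries, in a study of atrial fibrillation under ibrutinib, a kinase inhibitor given against B cell cancers. Vehicle-treated mice (CTL) and ibrutinib-treated mice (IBR) gave 3 libraries each. Untreated wild-type mice (WT) and mice with a cardiac deletion of Csk (KO) gave 2 libraries each, named WT35, WT338, KO26 and KO337 after their titles. The sources used here do not give dose, strain, sex, exact age, the deleted allele or what drives the deletion. The labels do not say that each library came from a separate mouse, so the p-values measure the spread between these libraries only.

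Csk encodes C-terminal Src kinase, an enzyme that keeps the kinases of the Src family switched off. When a locus is targeted in one mouse strain and bred into another, the DNA on both sides of it travels with the altered allele, and linked genes can then differ between genotypes for reasons of inheritance. A processed pseudogene is a copy of a messenger RNA that was written back into the genome without introns and usually no longer codes for a protein. Reads from such a copy and from its parent gene can be told apart only where their letters differ.

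In the order of the annotation (GENCODE vM21, build GRCm38), the tested genes of the interval are Ppcdc, Scamp5, Gm6166, Rpp25, Cox5a, Fam219b, Mpi, Scamp2, Ulk3, Lman1l, Csk, Edc3 and Clk3. Cox5a and Lman1l lie inside the interval without being among the 10. The counts were made on mm9, another build, so positions are given by order and not by coordinates. Of the 10 genes 9 code for proteins and 1, Gm6166, is annotated as a processed pseudogene. Edc3 and Clk3 lie on opposite strands and overlap at their ends, with 22.1% of the exon bases of Edc3 and 15.2% of those of Clk3 shared. The counting ignored strand, so reads in this overlap may have been assigned to neither gene. The other members had no exon base in common with another gene of the files.

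Total counts assigned to genes ran from 14907331 in KO26 to 19960947 in WT35. KO26 and KO337 were the least alike of the 8 pairs from one group: their Spearman correlation across genes was 0.955, and the other 7 pairs had 0.984 to 0.991. Summed levels of 10 atrial muscle genes lay between 9509 and 31756 CPM and those of 5 ventricular genes between 153 and 417 CPM, so the libraries carry atrial muscle RNA. CPM is the read count scaled to library size, here also corrected between libraries by trimmed mean of M values (TMM). Bmp10 (1 to 77 counts) was the atrial gene with too few counts to be tested. Csk itself had 18.2 CPM in WT35, 17.8 CPM in WT338, 24.7 CPM in KO26 and 35.5 CPM in KO337. CTL and IBR lay between 21.9 and 26.7 CPM. Thus the libraries labelled KO lay above and not below WT. The fitted difference of Csk was 0.74 on the log2 scale (SE 0.18, adjusted p = 0.0608 in edgeR's quasi-likelihood test), which missed the threshold of 0.05. Csk passed it without a scaling factor (0.97), with no filter on low counts (0.70), by DESeq2 (0.74) and without KO26 (0.96), and stood at 0.44 without KO337. Counts summed over a gene and over all cells of the atrium do not show whether part of the gene is missing or whether one cell type lacks it, so these values do not check the label, and every direction below is that of the labels.

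Gm6166 (ENSMUSG00000074280) was the member whose level set the labelled KO libraries apart, and its sequence shows what its reads can and cannot say. Among the GENCODE vM21 transcripts that share at least 25 bases with its 409 bases, the closest was the messenger RNA of Fabp5, the epidermal fatty acid-binding protein, a carrier of fatty acids in the cytosol that is also found in macrophages, fat cells and capillary endothelium. The match covered bases 93 to 499 of the Fabp5 transcript, from its start codon to the base before the end of the open reading frame at base 500. Of 409 aligned positions, 402 (98.3%) were identical; the next closest, the pseudogene Gm14328, had 395. Bases 181 to 409 of Gm6166 are shown with the matching bases 273 to 499 of the Fabp5 transcript, because they hold all but 1 of the differences; capitals mark the letters that differ.
Gm6166: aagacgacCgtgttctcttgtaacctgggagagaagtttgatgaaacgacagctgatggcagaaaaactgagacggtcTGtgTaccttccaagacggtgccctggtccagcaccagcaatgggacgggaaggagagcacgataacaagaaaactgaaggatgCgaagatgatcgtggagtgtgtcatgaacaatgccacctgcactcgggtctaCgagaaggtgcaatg
Fabp5: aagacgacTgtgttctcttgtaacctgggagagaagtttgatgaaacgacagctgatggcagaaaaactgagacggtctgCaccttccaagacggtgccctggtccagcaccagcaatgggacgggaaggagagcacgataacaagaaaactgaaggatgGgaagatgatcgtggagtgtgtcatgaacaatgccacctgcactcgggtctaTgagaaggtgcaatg
The differences are 5 substitutions, T9C, T189C, C263T, G343C and T395C, and an insertion of 2 bases in Gm6166, aligned at positions 259 and 260. Positions count from 1 at the 5′ end of Gm6166, with the base of Fabp5 first and that of Gm6166 last. Between positions 9 and 189 the copy and its parent do not differ.

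The length of the reads is not given in the sources used here, so windows of fixed length were compared. Of the 360 windows of 50 bases in Gm6166, 184 (51.1%) also occur letter for letter in the Fabp5 transcript, and 167 (46.4%) occur in no transcript of another gene. With windows of 100 bases, 230 of 310 (74.2%) occur in no transcript of another gene. Only annotated transcripts were searched, not the rest of the genome. How reads from shared windows were placed is not known beyond the share of reads set aside as not unique, so the level of Gm6166 is uncertain.

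Gm6166 was close to silent in every CTL, IBR and WT library and stood well above that in both libraries labelled KO. The vehicle libraries CTL1, CTL2 and CTL3 had 4, 6 and 12 reads, or 0.227, 0.432 and 0.724 CPM. The ibrutinib libraries IBR1, IBR2 and IBR3 had 13, 7 and 7 reads, or 0.801, 0.402 and 0.428 CPM. WT35 and WT338 had 7 and 15 reads, or 0.346 and 0.942 CPM. KO26 and KO337 had 180 and 357 reads, or 10.4 and 16.2 CPM, so both lie above all other libraries and the groups do not overlap. The fitted difference of the libraries labelled KO from WT was 21-fold (log2 4.39, SE 0.57). Only 0.306% of the tested genes had a larger log2 difference in size. It stayed between 3.81 and 5.22 on the log2 scale when each of the 4 genotype libraries was left out, with 3.81 without WT35, where Gm6166 no longer passed the threshold for a call (adjusted p under 0.05). It did not pass either when the genotype libraries were fitted alone (log2 4.43). The summed reads of Gm6166 and Fabp5, its closest relative, did not pass. Gm6166 gave at most 15.4% of those reads, in KO26, so that row is mostly Fabp5 and cannot test Gm6166.

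Fabp5, brought in after the values of Gm6166 had been seen, did not show the same pattern. CTL1, CTL2 and CTL3 had 32.2, 37.1 and 52.3 CPM of Fabp5, and IBR1, IBR2 and IBR3 had 59.7, 39.6 and 38.7 CPM. WT35 had 54.8, WT338 63.9, KO26 57.5 and KO337 101 CPM. KO26 thus lies between both WT libraries, and the fitted difference was 0.42 on the log2 scale (SE 0.31). With the reads of Gm6166 and Fabp5 summed into 1 row, an alternative chosen after seeing the data, the difference was 0.63.

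The share of Gm6166 in the reads of both genes uses the Gm6166 counts that were known when it was proposed. It therefore describes those counts again and tests nothing. This share separated the libraries labelled KO from all others. It was 0.702% in CTL1, 1.15% in CTL2 and 1.37% in CTL3, and 1.32%, 1% and 1.09% in IBR1, IBR2 and IBR3. WT35 had 0.627% of 1116 reads (exact 95% binomial interval 0.253% to 1.29%) and WT338 1.45% of 1032 reads (0.816% to 2.39%). KO26 had 15.4% of 1172 reads (13.3% to 17.6%) and KO337 13.8% of 2590 reads (12.5% to 15.2%). The intervals of both libraries labelled KO overlap each other and lie above those of the 8 other libraries; the intervals cover counting error only. KO26 and KO337 were thus nearly alike in this share, although KO337 had 1.76 times the Fabp5 CPM of KO26.

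**Figure D1:**
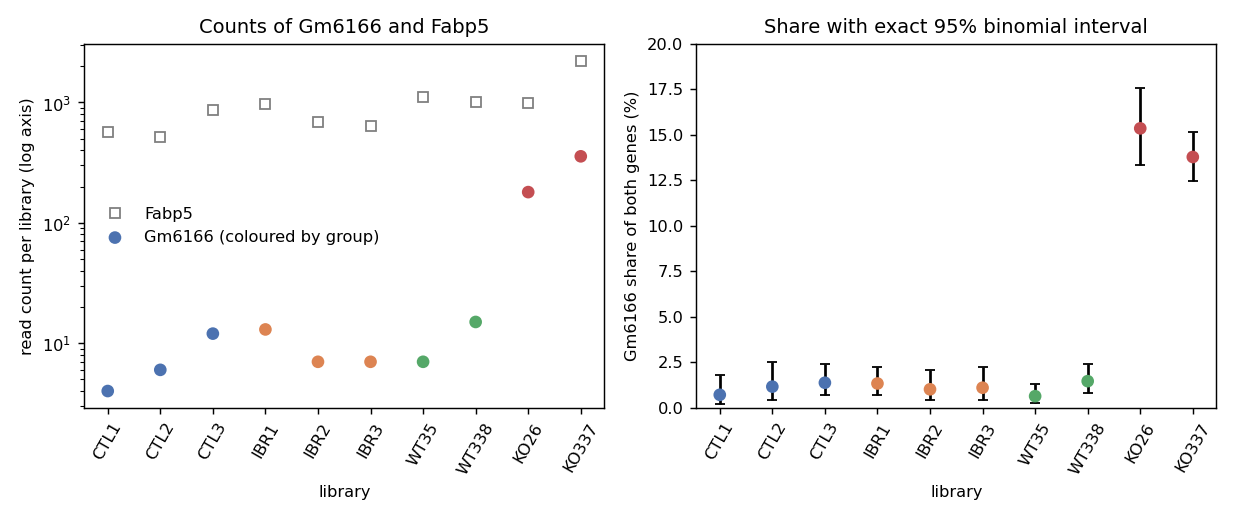
Read counts of Gm6166 (filled, coloured by group) and of its parent gene Fabp5 (open squares) in each library on a log axis (left), and the share of Gm6166 in the reads of both in percent with exact 95% binomial intervals (right). The share is 15.4% in KO26 and 13.8% in KO337 and at most 1.45% in the 8 other libraries, while the Fabp5 counts of KO26 lie within the range of the others.

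Markers of some other cell types differed in the same libraries. The 12 macrophage and monocyte markers summed to between 524 and 665 CPM in WT and reached 910 CPM in one library labelled KO and 3546 CPM in the other, and 3 of them were called higher (Adgre1, Ccr2 and Fcgr1). The 9 fibroblast markers summed to 2442 to 2700 CPM in WT and 3141 to 12107 CPM in the libraries labelled KO, with Thy1 called higher. The 8 T and NK cell markers summed to 7.76 to 10.2 CPM in WT and 15.9 to 21.3 CPM in KO26 and KO337, with Cd3e and Cd8a called higher. In CTL, IBR and WT, Cd3e had at most 0.305 CPM and Cd8a at most 0.241 CPM. Both thus passed the filter on low counts only through the libraries labelled KO, and their calls are no support. Over all tested genes 1.31% were called higher. Of the 7 T and NK cell markers tested, 6 had positive and 1 a negative log2 difference. The negative one was Trac, a T cell receptor constant region, which held most of the sum in WT: it had 4.65 CPM in WT35, 7.10 CPM in WT338, 2.84 CPM in KO26 and 2.90 CPM in KO337 (log2 -1.03, SE 0.38) and was not called. The sum of the 10 atrial muscle genes was 19468 to 21032 CPM in WT and 9509 to 15055 CPM in the libraries labelled KO. The sums of the 8 endothelial markers overlapped, at 1206 to 1459 CPM in WT and 1317 to 1638 CPM in KO. All 6 smooth muscle and pericyte markers had positive log2 differences (median 1.21). All 5 epicardial and mesothelial markers had negative ones (median -0.76). None of these was called. KO26 and KO337 also differed: Cd68 had 16.4 and 172 CPM in them, and Ccr2 had 22 and 11.8 CPM. In such bulk tissue fewer cells of a type and less RNA per cell cannot be told apart. The part of these markers in the level of Gm6166 and of the other members was not tested.

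The protein-coding neighbours were expressed in every library, with levels that differed widely from gene to gene. Per kilobase of annotated exon, Mpi had the highest mean level in CTL, 39.1 ± 1.49 CPM per kb (SD, n = 3). Scamp2 followed at 19.1 ± 1.55, Rpp25 at 14.8 ± 2.57 and Scamp5 at 8.06 ± 0.789 CPM per kb, and Csk itself stood at 6.51 ± 0.149 CPM per kb. Fam219b had 5.96 ± 0.283, Clk3 3.47 ± 0.492, Ulk3 3.07 ± 0.416, Edc3 2.01 ± 0.156, Ppcdc 1.41 ± 0.184 and Gm6166 1.13 ± 0.61 CPM per kb. In that order the CTL ranges of neighbours overlapped for Clk3 with Ulk3 and for Ppcdc with Gm6166 and for no other neighbouring pair. The levels of Edc3 and Clk3 may leave out the reads in their shared ends, as the annotation used for counting is not given.

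**Figure D2:**
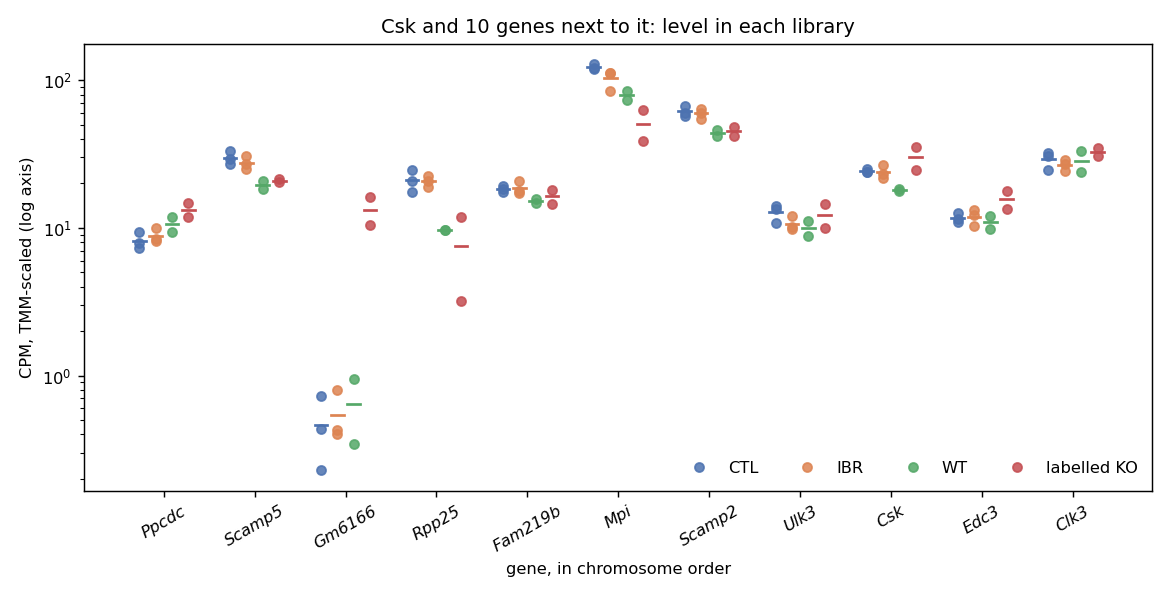
Level of Csk and of the 10 genes next to it in each library, in TMM-scaled CPM on a log axis, with genes in chromosome order, points for libraries, colours for groups and short lines for group means. Gm6166 spans from 0.227 CPM in CTL1 to 16.2 CPM in KO337, whereas Fam219b stays between 14.6 and 20.8 CPM.

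Ppcdc encodes phosphopantothenoylcysteine decarboxylase, an enzyme on the path from vitamin B5 to coenzyme A. It stood at 7.9, 7.27 and 9.35 CPM in CTL1, CTL2 and CTL3 and at 8.2, 8.38 and 10 CPM in IBR1, IBR2 and IBR3. It was at 11.8 CPM in WT35, 9.36 CPM in WT338, 11.8 CPM in KO26 and 14.7 CPM in KO337. KO26 lies between the WT libraries, so the genotype groups overlap, and the difference was 0.32 on the log2 scale (SE 0.22). For Ppcdc it was 0.13 without KO337, 0.15 without WT338, 0.50 without WT35 and 0.55 without a scaling factor. Mpi encodes mannose phosphate isomerase, which links glycolysis to the mannose used in protein glycosylation. Its CPM were 128, 120 and 120 in CTL1, CTL2 and CTL3 and 112, 111 and 85.1 in IBR1, IBR2 and IBR3. They were 84.4 in WT35, 73.6 in WT338, 62.4 in KO26 and 38.8 in KO337. The libraries labelled KO lie below both WT libraries, at a log2 difference of -0.65 (SE 0.22), and KO337 is the lowest of the 10 libraries. Without KO337 the difference was -0.36, and without KO26 it was -1.04.

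Rpp25 and Edc3 act on RNA. Rpp25 encodes a protein subunit of RNase P and RNase MRP, which trim transfer RNA and ribosomal RNA precursors. It stood at 24.7, 17.4 and 20.9 CPM in CTL1, CTL2 and CTL3, at 20.8, 22.5 and 18.8 CPM in IBR1, IBR2 and IBR3 and at 9.64 and 9.61 CPM in WT35 and WT338. KO26 was at 11.8 CPM and KO337 at 3.21 CPM, on opposite sides of WT. The difference of -0.38 (SE 0.45) on the log2 scale therefore turned to 0.27 without KO337 and to -1.60 without KO26. Edc3 encodes a scaffold of the complex that removes the cap from messenger RNA before its decay. It ranged from 10.3 to 13.2 CPM in CTL and IBR, and stood at 9.79 CPM in WT35, 12.1 CPM in WT338, 13.4 CPM in KO26 and 17.9 CPM in KO337. Both libraries labelled KO were above both WT libraries, at a log2 difference of 0.52 (SE 0.21). The difference of Edc3 was 0.27 without KO337, 0.36 without WT35 and 0.69 without KO26.

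Scamp2 and Scamp5 encode secretory carrier membrane proteins, which span the membranes of vesicles that travel between the Golgi, endosomes and the cell surface; Scamp5 is best known from nerve endings. Scamp2 had 41.7 CPM in WT35, 46 CPM in WT338, 42.2 CPM in KO26 and 48.5 CPM in KO337. Scamp5 had 20.9, 18.5, 20.4 and 21.4 CPM in the same order. Their genotype groups overlap, with log2 differences of 0.05 (SE 0.14) and 0.09 (SE 0.16). Both were higher in the 6 CTL and IBR libraries, where Scamp2 lay between 54.7 and 67.3 CPM and Scamp5 between 25.2 and 33.1 CPM. Fam219b, for which no role is given here, had 15.6 CPM in WT35, 14.8 CPM in WT338, 18.2 CPM in KO26 and 14.6 CPM in KO337, which overlap (log2 0.11, SE 0.17).

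Ulk3 and Clk3 encode protein kinases. Ulk3 belongs to the family of the autophagy kinase Ulk1 and also acts on Gli factors of the Hedgehog pathway, and Clk3 phosphorylates the serine- and arginine-rich factors of splicing. Ulk3 had 8.85 CPM in WT35, 11.2 CPM in WT338, 9.98 CPM in KO26 and 14.6 CPM in KO337 (log2 0.30, SE 0.24). Clk3 had 24, 32.9, 30.5 and 34.5 CPM in the same order (log2 0.19, SE 0.19). In both genes KO26 lies between the WT libraries and KO337 above them. In CTL and IBR, Ulk3 ranged from 9.78 to 14.1 CPM and Clk3 from 24.2 to 32.4 CPM.

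Across the genotype libraries, 8 of the 10 members had positive and 2 negative log2 differences, with a median of 0.15 against 0.01 over all 15364 genes tested. Without any scaling factor the median of all genes rose to 0.23 and that of the members to 0.38, with 8 of 10 again positive. Under the edgeR quasi-likelihood test 1 member, Gm6166, was called, where 2.21% of all tested genes were called in either direction, 1.31% higher and 0.898% lower. KO and WT values did not overlap for 3 members, of which Gm6166 and Edc3 were higher and Mpi lower. The same held for 53.2% of all genes, 26.3% higher and 26.9% lower. A log2 difference above 0 was found in 50.8% of all genes. As the members were proposed with this comparison known, these counts describe them only. Leaving Gm6166 aside, the differences ran from -0.65 to 0.52, and the median size of the difference over the 10 members, 0.31, lay near that of all genes, 0.35.

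The wider neighbourhood held no second gene with a difference as large as that of Gm6166. Within 20 tested genes of Csk on each side lie 30 further genes. None of these was called, where 2.21% of all tested genes were. KO and WT did not overlap for 19 of the 30 (63.3%), against 53.2% of all tested genes. Their log2 differences ran from -1.65 to 1.16, with 18 positive and 12 negative and a median of 0.16. The next genes to Csk that are not members, Lman1l and Arid3b, differed by -1.43 (SE 0.68) and 0.49 (SE 0.35), and Cox5a, a subunit of cytochrome c oxidase that lies between Rpp25 and Fam219b, by -0.72 (SE 0.26). By rank distance from Csk among tested genes, 5% of the 20 genes at ranks 1 to 10 were called, 0% of the 30 at ranks 11 to 25, 2% of the 50 at ranks 26 to 50, 1% of the 100 at ranks 51 to 100 and 2.23% of the 627 farther away. The 5% at ranks 1 to 10 is 1 gene, Gm6166, a member proposed with this comparison known. Over the whole chromosome 2.05% of 828 genes were called, which put it at place 13 of 20 chromosomes.

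**Figure D3:**
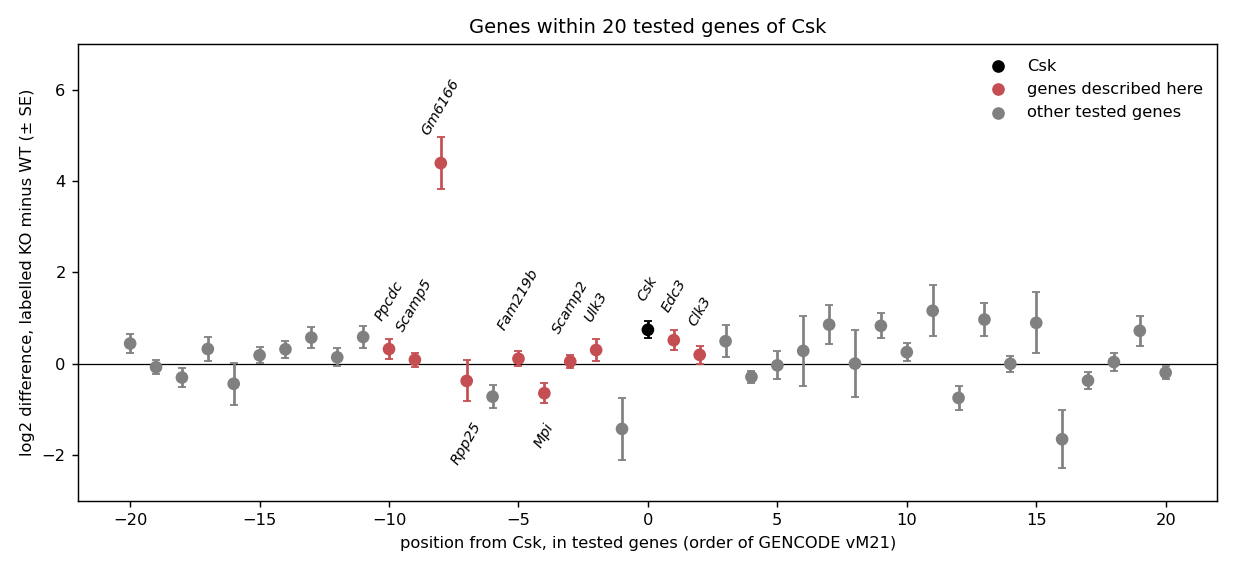
Log2 difference of the libraries labelled KO from WT, with its SE, for the 41 tested genes within 20 places of Csk, in the order of the annotation; red marks the 10 genes described here and black Csk. Gm6166 stands at 4.39, and the other genes lie between -1.65 and 1.16.

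Among all 371 processed pseudogenes tested, 6 (1.62%) were called in the genotype comparison, against 2.21% of all tested genes. Gm6166 was 1 of these 6, of which 2 were higher and 4 lower. The other one called higher was Gm9855 on chromosome 10, with 0.0494 CPM in WT35, 0.0628 in WT338, 1.04 in KO26 and 1.54 in KO337. The 4 called lower were Rps13-ps1, Rps15a-ps8, Gm6436 and Gm10263, on chromosomes 8, 4, 13 and 13. Rps15a-ps8 had 1.78 and 1.57 CPM in WT35 and WT338 and no read in KO26 or KO337, where 3 reads would correspond to 0.174 and 0.136 CPM. Of these 6, Gm6166 alone lies on the chromosome of Csk; pseudogenes of other annotated types were not counted here. Of all genes, the 5 whose log2 CPM followed Gm6166 most closely over the 10 libraries were Arhgef2 (Pearson r 0.989), Esr1 (0.985), Dlg3 (0.977), Snx20 (0.973) and Unc13d (0.972), none of them on chromosome 9. The libraries of a group share their treatment or genotype, so these are descriptions. Over the 8 libraries without the KO label, where Gm6166 has 4 to 15 reads, r was 0.956 for Arhgef2 and 0.772 to 0.885 for the other 4. These 8 libraries were among the 10 used to pick the genes, so these values are no separate check of the likeness. For Csk the closest were Ftl1-ps1 (0.929), Mgat2 (0.928), Serinc2 (0.921), Slc1a4 (0.921) and Hip1r (0.92), again with none on chromosome 9.

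Ibrutinib against vehicle is the comparison that the choice of members did not use, and no member was called in it. Of the 10 members 4 had positive and 6 negative log2 differences, with a median of -0.04 against -0.03 over all genes, of which 44.7% were above 0. Without a scaling factor 6 of the 10 were positive, with a median of 0.04 against 0.05. In edgeR's quasi-likelihood test 0 of 10 members passed, with adjusted p from 0.824 to 0.992, and 0% of the 15364 genes were called in either direction. No member had an unadjusted p under 0.05, where 5.51% of all genes (847) did, and DESeq2 called 0 members and 2 genes. The groups did not overlap for 1 member, Mpi, where 13.4% of genes did not overlap, 5.91% higher and 7.53% lower; its 3 IBR libraries lay below its 3 CTL libraries, at -0.26 on the log2 scale (95% interval -0.65 to 0.14). The bounds were narrowest for Scamp2, whose difference of -0.05 had a 95% interval from -0.31 to 0.21, and widest for Gm6166, at 0.23 with an interval from -0.98 to 1.45. The wide interval of Gm6166 rests on 4 to 13 reads a library. The remaining differences were 0.12 for Ppcdc, -0.11 for Scamp5, -0.02 for Rpp25, 0.02 for Fam219b, -0.26 for Ulk3, 0.03 for Edc3 and -0.13 for Clk3. The signs of Rpp25, Fam219b, Scamp2, Edc3 and Gm6166 turned in at least 1 alternative.

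**Figure D4:**
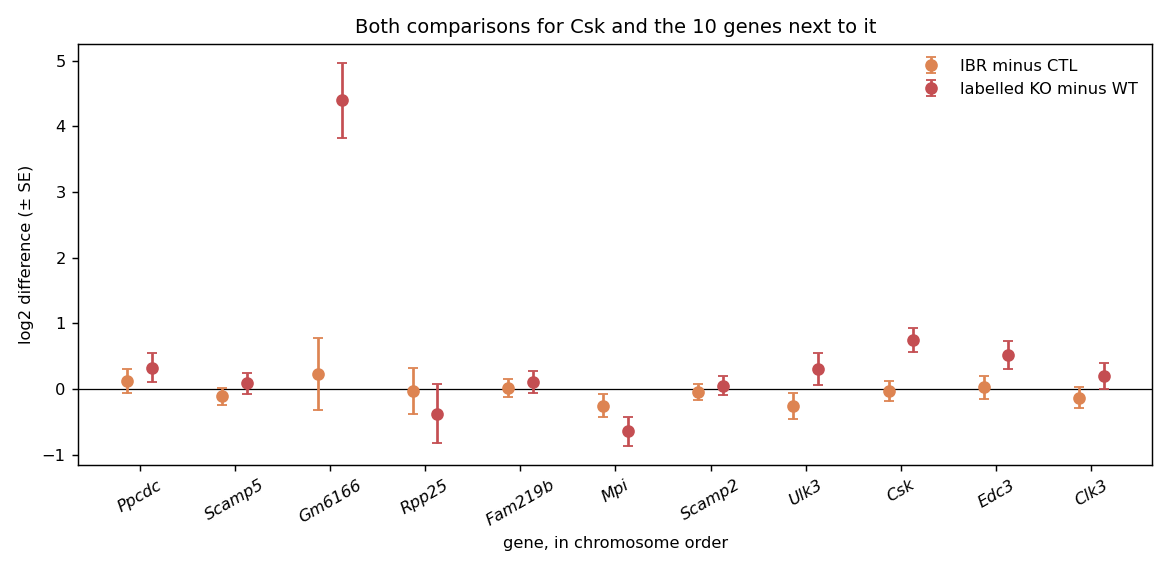
Log2 difference with its SE for Csk and the 10 genes next to it, for IBR minus CTL (orange) and for the libraries labelled KO minus WT (red), with genes in chromosome order. All differences between IBR and CTL lie between -0.26 and 0.23, and Gm6166 is at 4.39 in the genotype comparison.

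The reference groups of the 2 parts of the experiment, CTL and WT, differed for some members. The IBR libraries and those labelled KO do not enter this count. Both WT libraries lay below all 3 CTL libraries for 5 members (Scamp5, Rpp25, Fam219b, Mpi and Scamp2), above them for Ppcdc, and overlapped them for the other 4. The same share over all tested genes was not counted, so it is not known whether this is particular to the members. The labels do not say whether the untreated and the vehicle-treated mice were handled together, so no test was made. Over all 10 libraries the range of log2 CPM was 5.57 for Gm6166, 2.90 for Rpp25, 1.72 for Mpi and 1.00 for Ppcdc, and 0.50 for Fam219b, the steadiest member.

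The families and pathways of the members were read from 7 lists, with 61 tested genes of which 9 are members, and none of the 61 was called in either comparison. Of all tested genes 2.21% were called in the genotype comparison and 0% between IBR and CTL. A count of 0 among 61 is near these shares and says little about the families. The 4 CLK kinases had a median of 0.35 on the log2 scale in the genotype comparison, with Clk2 at 0.51 (adjusted p = 0.124 in edgeR's quasi-likelihood test). The 8 genes around the ULK kinases had a median of -0.04, where Atg13, a partner of Ulk1 in the start of autophagy, was nearest to a call at -0.52 (SE 0.13, adjusted p = 0.058 in edgeR's test). The 12 decapping genes had a median of -0.06, the 11 RNase P and MRP genes -0.18, the 8 genes of coenzyme A synthesis -0.02, the 12 genes of mannose phosphate and sugar nucleotide supply -0.09 and the 6 SCAMP and FAM219 genes 0.07. In coenzyme A synthesis Pank4 stood at -0.50 (adjusted p = 0.0997 in edgeR's test) and Coasy, the last enzyme of the path, at 0.43. Between IBR and CTL the medians of the 7 lists ran from -0.18 to 0.02.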

How the data were processed

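Poly(A)-selected RNA of 10 mouse left atrial libraries, made with a directional kit, was analysed from the deposited raw counts of reads per gene, 1 file per library. The tools named in the submitters' processing notes are STAR, HTSeq and edgeR, and the build is mm9; the sources used here do not give versions, annotation or read length. The deposited files call their counts not stranded. Rows for unassigned reads were left out (no feature 13.5% to 19.9%, not unique 11.8% to 27.4%, ambiguous 3.14% to 3.99% of records). Of 37583 gene identifiers, 32860 (87.4%) had a symbol.

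Groups came from the titles. Genes were kept by filterByExpr (minimum count 10, minimum total 15), which left 15364, all 10 members among them. Libraries were scaled by TMM (factors 0.87 to 1.23). All libraries entered 1 quasi-likelihood fit in edgeR 4.0.16 (R 4.3.3) with a mean per group and 6 residual degrees of freedom, and "called" means a Benjamini-Hochberg adjusted p under 0.05 over all genes. An SE is the log2 difference over the square root of F. No pair of libraries agreed within sampling noise (chi-square per degree of freedom at least 14.7). Levels per kilobase use exon lengths of GENCODE vM21. Sequences are GENCODE vM21 transcripts (GRCm38), aligned with Biopython 1.88. Alternatives were other scaling, other filters, DESeq2 1.42.0, fewer libraries and a replicate block. Named genes are the members, Csk, the called members of a list and at most 2 with the smallest p, called genes within 20 tested genes of Csk and the 5 genes most alike; Fabp5, Gm14328, Coasy, Cox5a, Lman1l, Arid3b, Trac and the called pseudogenes were added after their values were seen. The members and lists were chosen with earlier results of these data known. The script was tested on simulated data. There the genotype comparison called 19 of 100 genes changed 2-fold and 66 of 100 changed 4-fold, with 8 false calls. The simulated libraries of all groups shared the same spread for each gene. In the data KO26 and KO337 differed more, with a chi-square per degree of freedom of 138 against 14.7 to 39.3 for the other pairs. These rates therefore do not carry over to the measured genotype comparison.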

Additional observations from a re-analysis of the deposited data

How the results depend on the processing

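In the genotype comparison 339 genes were called (201 higher, 138 lower, 59.3% higher), with 360 and 81.7% higher without a scaling factor. The count was 1146 with no filter, 1858 by DESeq2 and 0 with these libraries alone (2115 at an unadjusted p under 0.05), and 14 to 3934 with 1 library left out, where a lone library is assumed to vary like the other groups. The count was 14 without WT35, 21 without WT338, 55 without KO337 and 3934 without KO26. The number of members called was 1, and 2 with no filter, 0 with these libraries alone and 0 to 4 with 1 library left out: 0 without WT35 and 4 without KO26 (Rpp25, Mpi, Edc3 and Gm6166). These member counts are out of 10, and the counts over all genes are out of 24494 with no filter and 16181 without KO26. The setting without KO26 had the most called genes of all settings and left KO337 as the lone library labelled KO. The members called there are therefore no sign of a change particular to the members. Gm6166 was higher under every setting run, at 3.81 to 5.22 with 1 library left out. With 1 library left out the log2 differences turned for Scamp5 (-0.00927 to 0.17), Scamp2 (-0.0752 to 0.13), Clk3 (-0.0225 to 0.43), Fam219b (-0.0708 to 0.24), Ulk3 (-0.0215 to 0.53) and Rpp25 (-1.60 to 0.27). The causes were not tested.

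For ibrutinib against vehicle 0 genes were called, and 2 with no filter and 2 by DESeq2; with 1 library left out it was 0 throughout. No member was called under any setting. Signs turned for Rpp25 (0.0534 without a scaling factor, 0.0178 with no filter, 0.0107 with the replicate block), Scamp2 (0.0271 without a scaling factor) and Csk (0.0588 without a scaling factor, 0.0171 with no filter, 0.000472 with these libraries alone). With 1 library left out they turned for Gm6166 (-0.15 to 0.74), Rpp25 (-0.14 to 0.11), Fam219b (-0.0691 to 0.0714), Scamp2 (-0.10 to 0.0170), Edc3 (-0.0533 to 0.12) and Csk (-0.11 to 0.0326). Same-numbered CTL and IBR libraries deviated together with r of 0.0159, 0.162 and 0.0321, and differently numbered ones with r from -0.197 to 0.182. With so few libraries in a group these values cannot show whether same-numbered libraries are paired. With the replicate block edgeR called 0 genes (1731 at an unadjusted p under 0.05). Without it the same libraries gave 0 called genes (1308 at an unadjusted p under 0.05). Gm6166 had too few counts to be tested with the CTL and IBR libraries alone, with or without the block.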
